A study of Mus musculus with 2 samples.

Results

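Receptors and enzymes of extracellular nucleotide signalling were examined in mouse intestinal subepithelial myofibroblasts, the contractile stromal cells that lie beneath the gut epithelium. The set held 10 genes chosen by name: the P2Y receptor genes P2ry1, P2ry2, P2ry6 and P2ry14, the P2X channel genes P2rx4 and P2rx7, the ectonucleotidase genes Entpd1 and Nt5e, and the adenosine receptor genes Adora1 and Adora2b. Each gene was read by a probeset that the array annotation pairs with that gene alone, and 8 of the 10 had one, out of 22180 genes named this way. Adora1 and Adora2b are not analysed here. None of the 8 had more than 1 such probeset.

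The stimulated group was 1 array of wild-type BALB/c myofibroblasts cultured for 1 day with homogenised intestinal eosinophils at 5 mg/ml, and the non-stimulated group was 1 array of the same kind of cells cultured without homogenate. RNA of 3 cultures was pooled for each array, and the labels do not say how many animals gave the cells. With 1 array per condition there is no replicate error and no test between conditions, so each difference describes these pools only, and the number of arrays limits its precision. Values are log2 after RMA, a normalization that gives both arrays nearly one distribution, and a difference is the stimulated value minus the non-stimulated value.

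Cells release ATP, UTP and UDP-sugars when they are damaged or stretched, and neighbouring cells sense them through P2 receptors. P2X receptors are ATP-gated cation channels, and P2Y receptors are coupled to G proteins and differ in the nucleotide they prefer. The ectoenzyme CD39, encoded by Entpd1, removes phosphates from ATP and ADP to give AMP, and CD73, encoded by Nt5e, turns AMP into adenosine, which acts on its own receptors.

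P2ry6 and P2ry2 were higher on the stimulated array, by 1.89-fold and 1.56-fold, and the other 6 genes differed by 1.27-fold or less. No gene of the set reached 2-fold, which 0.192% of all 14068 genes above background did upwards and 0.0426% downwards. At a threshold of 1.5-fold, 2 of the 8 genes were higher and 0 lower, against 0.796% and 0.64% of all genes. At a lower threshold of 0.32 on the log2 scale the same 2 were higher and 1, Entpd1, was lower, against 3.77% and 4.31% of all genes. By sign alone 5 were higher and 3 lower, against 50.2% and 48.2% of all genes. The median difference of the 8 genes was 0.07, and that of all genes above background was 0.00. P2ry6 and P2ry2 were thus the upper end of a set whose centre was near that of the whole array.

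**Figure D1:**
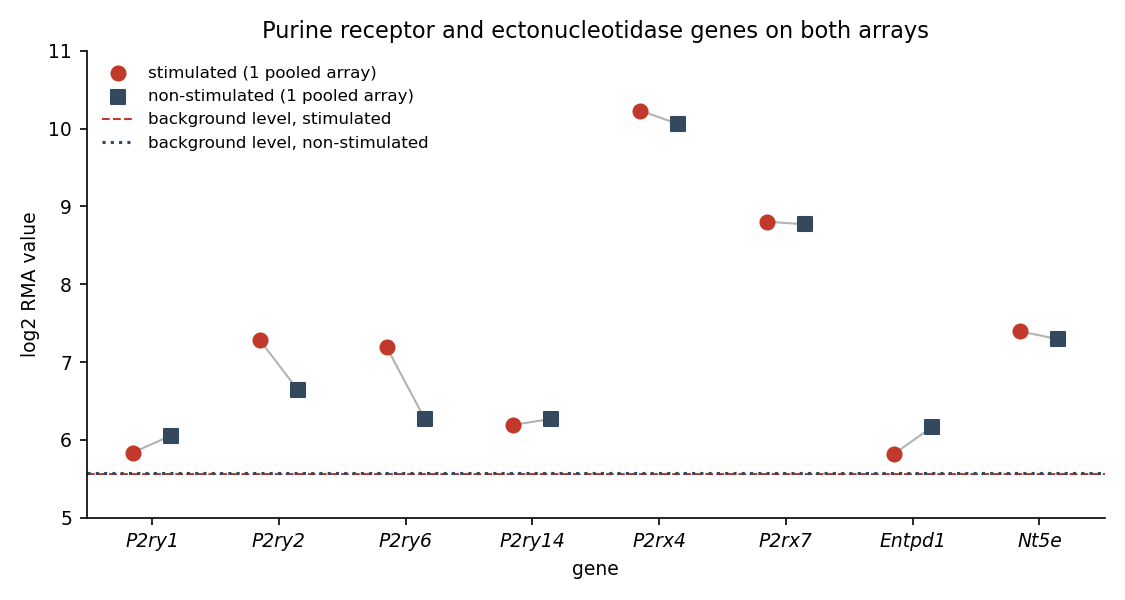
Log2 RMA value of each gene on the stimulated array (circles) and the non-stimulated array (squares), 1 pooled array each, with the background level of each array as a horizontal line. P2ry2 and P2ry6 read 7.29 and 7.19 on the stimulated array, against 6.64 and 6.28 on the non-stimulated array, and P2ry1 and Entpd1 lie closest to background.

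A background level was set at the 95th percentile of 1407 probesets for olfactory and vomeronasal receptor genes, best known from sensory neurons of the nose, and it lay at 5.57 on the stimulated and 5.58 on the non-stimulated array. All 8 genes passed it on both arrays. The 99th percentile of the same probesets was much higher, at 6.65 on the stimulated and 6.80 on the non-stimulated array. P2ry1, P2ry14 and Entpd1 were under that stricter level on both arrays, and P2ry6 and P2ry2 were under it on the non-stimulated array only.

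Among the P2Y receptors, P2ry6 encodes a receptor for UDP that signals through Gq. P2ry6 read 7.19 on the stimulated array, against 6.28 on the non-stimulated array, a log2 difference of 0.92. It was place 32 among the 7066 genes that were higher. Of the 1000 genes nearest to it in mean level, 0 were higher by as much, and the central 95% of their differences lay between -0.41 and 0.37. Measured against the stricter background level, P2ry6 was at least 1.31-fold higher.

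P2ry2 encodes a receptor that answers to ATP and UTP alike and also couples to Gq. P2ry2 read 7.29 on the stimulated array, against 6.64 on the non-stimulated array, a log2 difference of 0.64, place 84 among the higher genes. Of the 1000 genes nearest in mean level, 4 were higher by as much, and the central 95% lay between -0.38 and 0.34. Against the stricter background level its bound was at least 1.40-fold higher. With that level used only to choose the genes compared, P2ry6 and P2ry2 kept their values and stayed the 2 genes past 1.5-fold. Both pass that level through the stimulated array, where they are high, so this outcome was fixed in advance. With values under that level raised to it, a setting added after seeing the data, 0 genes were past 1.5-fold.

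The remaining P2Y receptor genes had slightly lower stimulated values. P2ry1 encodes an ADP receptor, known in the gut for inhibitory transmission to muscle and in blood for platelet activation. P2ry1 read 5.84 on the stimulated array, against 6.06 on the non-stimulated array, a log2 difference of -0.22 that 166 of the 1000 genes nearest in level matched or passed in the same direction. P2ry14 encodes a receptor for UDP-glucose and related UDP-sugars. P2ry14 read 6.19 on the stimulated array, against 6.27 on the non-stimulated array, a difference of -0.08 that 388 of 1000 such genes matched or passed. Both lay no more than 0.69 above the background level on each array, where genes of like level spread widest.

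**Figure D2:**
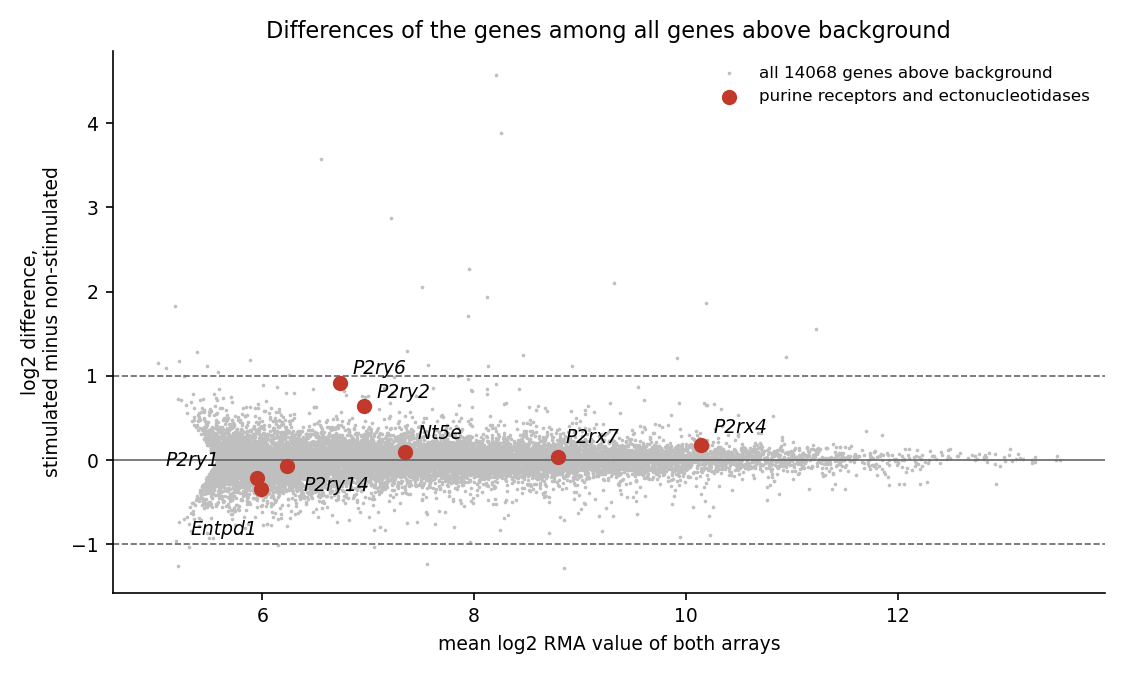
Log2 difference (stimulated minus non-stimulated, vertical axis) against the mean log2 RMA value of both arrays (horizontal axis) for all 14068 genes above background (grey) and the 8 purine receptor and ectonucleotidase genes (red), with dashed lines at 2-fold. P2ry6 and P2ry2 lie at the upper edge of the grey cloud and the other 6 within it.

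The P2X channel genes were well above background and differed little. P2rx4 encodes a channel found on the cell surface and in lysosomes, and P2rx7 one that opens at high ATP and is known for triggering interleukin-1 release in macrophages. P2rx4 read 10.23 on the stimulated array, against 10.06 on the non-stimulated array, a log2 difference of 0.17. Of the 1000 genes nearest in mean level, 62 were higher by as much. P2rx7 read 8.80 on the stimulated array, against 8.77 on the non-stimulated array, a difference of 0.03 that 452 of 1000 such genes matched or passed. Both channel genes passed the stricter background level on both arrays.

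The ectonucleotidase genes differed in opposite directions, each by little. Entpd1 read 5.82 on the stimulated array, against 6.16 on the non-stimulated array, a log2 difference of -0.34, or 1.27-fold lower. That difference was inside the central 95% of the 1000 genes nearest in level, which lay between -0.44 and 0.40, and 65 of them were lower by as much. Nt5e read 7.39 on the stimulated array, against 7.29 on the non-stimulated array, a difference of 0.10 that 259 of 1000 genes of like level matched or passed. Entpd1 was thus the lowest difference of the set, at a level only 0.25 above background on the stimulated array and 0.58 on the non-stimulated array.

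**Figure D3:**
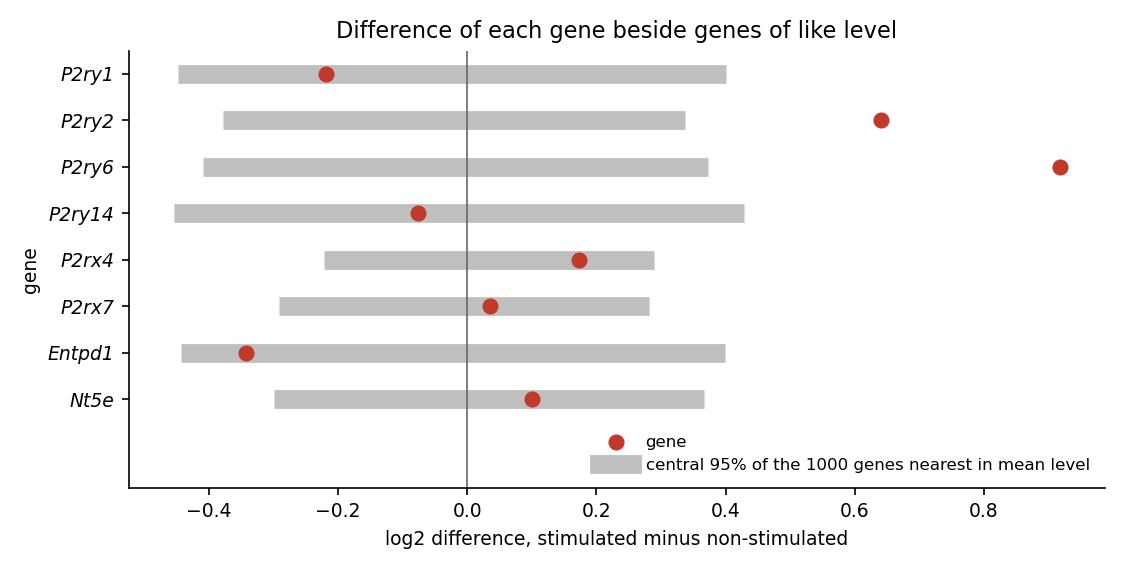
Log2 difference of each gene (red point, stimulated minus non-stimulated, horizontal axis) beside the central 95% of the differences of the 1000 genes nearest to it in mean level (grey bar). P2ry6 (0.92) and P2ry2 (0.64) lie to the right of their bars, and the other 6 genes lie inside theirs.

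The genes with the largest differences were also neighbours. In the order of protein-coding genes on chromosome 7 in the RefSeq annotation of GRCm38.p6, P2ry6 and P2ry2 lie next to each other. Arhgef17, on the P2ry6 side, differed by 0.17, and Fchsd2, a gene of membrane and actin remodelling on the P2ry2 side, differed by 0.34. One gene further out, Relt (a TNF receptor family member) differed by 0.14 and Atg16l2 by -0.11. P2rx7 and P2rx4 are neighbours as well, on chromosome 5, and both differed by less than 0.2. Arhgef17, Fchsd2, Relt and Atg16l2 are given for their place on the chromosome.

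Promoter windows from RefSeq on GRCm38.p6, each 250 bases before to 50 bases after a transcription start, were available for 7 of the 8 genes, in 13 windows. The gene without a window was P2ry6, which had the largest difference, so nothing below covers it. The P2ry2 window is shown as the promoter of a gene that was higher and an Entpd1 window as that of the gene with the lowest difference. They lie at chr7:101012004-101012303 on the minus strand and at chr19:40612116-40612415 on the plus strand, and capitals mark matches to GGGNNNNNCC, TGANTCA, TGACGTCA or CACGTG on either strand.
P2ry2: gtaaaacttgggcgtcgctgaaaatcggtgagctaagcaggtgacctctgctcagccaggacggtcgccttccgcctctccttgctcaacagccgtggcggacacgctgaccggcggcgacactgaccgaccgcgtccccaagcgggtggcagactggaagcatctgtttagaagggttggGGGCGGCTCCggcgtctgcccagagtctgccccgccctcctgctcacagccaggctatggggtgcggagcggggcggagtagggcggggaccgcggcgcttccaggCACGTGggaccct
Entpd1: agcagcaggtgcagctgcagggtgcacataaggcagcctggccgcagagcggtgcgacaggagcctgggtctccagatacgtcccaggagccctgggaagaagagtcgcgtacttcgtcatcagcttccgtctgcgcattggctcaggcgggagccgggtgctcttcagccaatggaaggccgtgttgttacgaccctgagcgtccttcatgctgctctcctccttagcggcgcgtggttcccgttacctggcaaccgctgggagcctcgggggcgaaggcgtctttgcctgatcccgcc

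The first pattern, GGGNNNNNCC, is a loose form of the site bound by NF-kB, the second is an AP-1 site, the third a cyclic AMP response element and the fourth an E-box. The P2ry2 window held 1 match to GGGNNNNNCC, starting 69 bases before the start site, and 1 to CACGTG, starting 37 bases after it. The Entpd1 window held no match to any of the 4 patterns. Over the 13 windows, GGGNNNNNCC was found in 7, against 50.8% of all 32851 promoter windows, and CACGTG in 2, both of P2ry2, against 7.15%. The windows with GGGNNNNNCC came from 6 of the 7 genes, all but Entpd1. They include windows of P2ry1 and P2ry14, which had lower stimulated values, so the match did not follow the direction of the difference. TGANTCA was found in 3, of P2rx7 and P2ry14, against 7.81%, and TGACGTCA in 0, against 1.79%. The windows of P2ry2 overlap, as do some of P2ry14, and a match describes the letters only.

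The wider purinergic pathway was centred near 0. Of 105 other genes in 7 lists, 97 were measured and 80 were above background, of which 39 were higher and 40 lower on the stimulated array. Their median difference was 0.00, like that of all genes, and 2 were at least 1.5-fold higher and 0 lower, against the 0.796% and 0.64% of all genes. The 2 were Xdh, the xanthine dehydrogenase that completes purine breakdown to uric acid, and Casp4, the mouse caspase-11 that senses bacterial lipopolysaccharide.

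**Figure D4:**
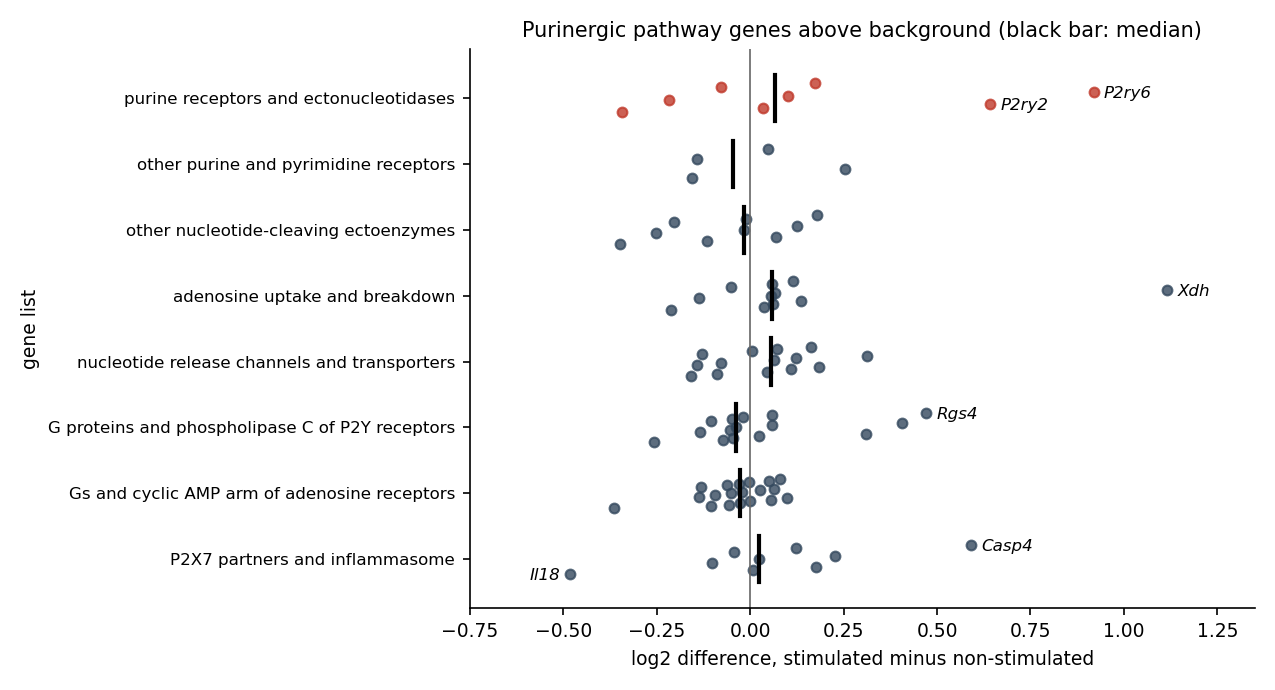
Log2 differences (stimulated minus non-stimulated, horizontal axis) of the genes above background in each list (rows), with the 8 purine receptor and ectonucleotidase genes in red and a black bar at each median. The medians lie between -0.05 and 0.07, and P2ry6, P2ry2, Xdh and Casp4 lie farthest to the right.

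Of 11 other receptors measured, 7 were under background on both arrays. These were P2ry4, P2ry10, P2ry12, P2ry13, P2rx1, P2rx2 and the adenosine receptor gene Adora3, which read 5.10 on the stimulated array and 4.99 on the non-stimulated array. The 4 above it were the channel genes P2rx6, P2rx3 and P2rx5 and Gpr17, a receptor related to the P2Y family. They differed by 0.25, 0.05, -0.14 and -0.15, with a median of -0.05.

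Other nucleotide-cleaving enzymes, not all of them at the cell surface, had a median of -0.02 over 9 genes above background. Of these, 3 were higher and 6 lower. The highest were Alpl (tissue-nonspecific alkaline phosphatase, 0.18) and Entpd5 (0.13), and Entpd6 was at -0.25. Entpd3, a cell-surface relative of Entpd1, read 5.48 on the stimulated array, under background, against 5.83 on the non-stimulated array, which makes it at least 1.20-fold lower.

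Adenosine uptake and breakdown genes had a median of 0.06 over 11 genes, with 8 higher and 3 lower. Xdh read 8.69 on the stimulated array, against 7.58 on the non-stimulated array, 2.17-fold higher, and it was the only gene above background in the 7 lists that reached 2-fold. The next highest was the equilibrative nucleoside transporter gene Slc29a2, at 0.14. The lowest were the concentrative transporter gene Slc28a2, at -0.21, and Pnp (purine nucleoside phosphorylase), at -0.14. Both lay close to background, Slc28a2 at 5.64 on the stimulated and 5.85 on the non-stimulated array and Pnp at 5.74 and 5.88 in the same order.

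Nucleotide release genes had a median of 0.05 over 14 genes, with 9 higher and 5 lower. Slc35d2, a nucleotide-sugar transporter gene, was highest at 0.31, followed by the connexin gene Gja1 at 0.18. The lowest were Lrrc8e, a subunit of volume-regulated anion channels, at -0.16 and the pannexin gene Panx2 at -0.14. Panx1, the pannexin best known for ATP release, read 8.05 on the stimulated array and 7.93 on the non-stimulated array.

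The signalling arms below the receptors differed little. Of 15 G protein, phospholipase C and related genes, 9 were lower and 6 higher, and the median difference was -0.04. Rgs4, which shortens Gq and Gi signals, read 5.95 on the stimulated array, against 5.48 on the non-stimulated array, under background, so that it was at least 1.29-fold higher. Plcb2 barely passed background, on the stimulated array only. The lowest were Gnai1 at -0.26 and Gna11 at -0.13, while Gnaq, which encodes the Gq subunit itself, differed by 0.06.

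The cyclic AMP arm used by adenosine receptors had a median of -0.03 over 19 genes, with 6 higher and 12 lower. The phosphodiesterase gene Pde3a was lowest at -0.36, followed by Prkacb, a catalytic subunit of protein kinase A, at -0.14. The highest were the phosphodiesterase genes Pde3b at 0.10 and Pde4a at 0.08.

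Among partners of P2X7 and inflammasome genes, the 9 above background had a median of 0.02, with 6 higher and 3 lower. Casp4 read 9.34 on the stimulated array, against 8.75 on the non-stimulated array, 1.51-fold higher, and Gsdmd, which encodes the pore-forming gasdermin D, differed by 0.23. Il18, which encodes a cytokine released by inflammasomes, differed by -0.48, but on the stimulated array it read 5.57, at the background level. Txnip, a thioredoxin-binding protein gene, differed by -0.10. Il1b and the sensor gene Nlrp3 were under background on both arrays.

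The most like differences to that of P2ry6, among named genes above background on both arrays, were those of Gda (guanine deaminase, 0.99) and Il6 (0.96) above it and AI504432 (0.91) and Ier3 (0.87) below it. Nearest to P2ry2 were Hgf (hepatocyte growth factor, 0.64) and Fbxl5 (an iron-sensing ubiquitin ligase subunit, 0.64) above it and Odc1 (ornithine decarboxylase, 0.64) and Il1r1 (the interleukin-1 receptor, 0.63) below it. With 2 arrays, a like difference is the only likeness that can be read.

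The cell type was checked because P2ry6, P2rx7 and Entpd1 are also known from macrophages and other leukocytes. Of all 22180 named genes, 14068 were above background on at least 1 array, so a count of markers above it is to be read beside that share. Myofibroblast and fibroblast markers were above background for 12 of 13 genes, led by Vim (13.16 on the stimulated and 13.10 on the non-stimulated array) and Acta2 (12.78 and 13.07 in the same order), with Gli1 under it. They did not move together: Des (desmin) read 7.23 on the stimulated array, against 7.85 on the non-stimulated array, 1.54-fold lower, and Tagln (transgelin) differed by -0.41, while Pdgfra, a growth factor receptor gene of fibroblasts, differed by 0.56. The median of the 12 was -0.04. A label field names eosinophils as the source of both samples, but of 8 eosinophil markers only Alox15 was above background, at 5.87 on the stimulated and 5.68 on the non-stimulated array, and Epx, Prg2, Siglecf and Ccr3 were under it on both. Of 13 macrophage markers, 6 were above background on the stimulated and 5 on the non-stimulated array, led by Mertk (7.02 and 6.98) and Cx3cr1 (6.81 and 6.57). The summed level of all 13 on the linear scale was 716 on the stimulated and 679 on the non-stimulated array. That sum includes 7 genes under background on both arrays, among them the defining genes Adgre1, Csf1r, Itgam and Ptprc. Of the 6 markers above background on at least 1 array, 5 were higher on the stimulated array, as P2ry6 was, against 50.2% of all genes. The median difference of the 6 was 0.14, and Lyz2 among them passed background on the stimulated array only. Lyz2, the lysozyme gene of myeloid cells, differed most, at 5.66 on the stimulated array, against 5.15, under background, on the non-stimulated array, which makes it at least 1.06-fold higher. The part of such cells in the P2ry6 difference was not tested.

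Markers of other cell types were measured too, beside the same 14068 of 22180 named genes above background. Above background on at least 1 array were 2 of 7 neutrophil markers (led by Cxcr2 and Elane), 0 of 5 mast cell markers (highest Kit and Tpsab1), 1 of 6 lymphocyte markers (Cd4, followed by Cd79b), 4 of 7 endothelial markers (led by Egfl7 and Pecam1) and 3 of 9 epithelial markers (led by Krt8 and Muc2). Of 6 enteric neuron and glia markers, 5 were above it, with Uchl1 at 8.51 on the stimulated and 8.62 on the non-stimulated array and Tubb3 at 8.24 and 8.11 in the same order. Sox10, a glial transcription factor gene, read 8.05 on the stimulated and 8.21 on the non-stimulated array. In the same order S100b read 6.87 and 7.17 and Gfap 6.35 and 6.51, while Elavl4 was under background on both arrays. The part of enteric neurons and glia in the values of the 8 genes was not tested. In pooled RNA, fewer cells of a type and less RNA per cell cannot be told apart.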

How the data were processed

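Gene expression of cultured mouse gut myofibroblasts was profiled with GeneChip Mouse Gene 2.0 ST arrays, 1 per condition, each hybridised with the pooled RNA of 3 cultures, per the labels. The values are the authors' deposited log2 values, made with Affymetrix Expression Console and RMA per the submitters' processing notes. Their versions and the genome build of the probesets were not given in the sources used here. When each array was sorted, the largest gap between them was 0.0757, as quantile normalization leaves it, which removes any overall shift. The file holds 41345 probesets. The annotation pairs 23521 of them with a single gene, and these were used, while 1814 with several genes and 16010 without one were not. A gene with several probesets took the one with the highest mean over both arrays. Symbols of 23328 probesets were updated through RefSeq (GRCm38.p6).

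Differences, counts and medians were computed in Python 3.11.15 with pandas 2.3.3, and a lowess trend with statsmodels 0.14.6. A gene was compared when above background on at least 1 array, and folds are 2 to the power of the difference. A gene under background on 1 array has a bound against that array's background level. The functions were checked on simulated data. The genes, lists and rules were chosen with earlier results of these data known. Named were all 8 measured genes, and the 2 highest and 2 lowest of each pathway list with any past 0.5. Of the marker lists the brightest genes were named, with defining genes for eosinophils and macrophages and a few others. The 2 genes on either side of each member at least 1.5-fold apart in the order of differences were named too. Alternatives covered the probeset rule, centring, background, fold and mean against median. Some list members are not analysed here.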

Additional observations from a re-analysis of the deposited data

How the results depend on the processing

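No paired analysis was possible because each condition has 1 array, and for the same reason no array could be left out. Of 117 values recomputed under the alternatives, 111 stayed within 0.1 on the log2 scale, or within 1.5 times for a count. A change of sign was looked for only in P2ry6 and P2ry2, the values at least 1.5-fold apart. There were 0, but these settings could hardly have turned either gene. Several of these settings could hardly move the 8 genes. Each has 1 probeset, so the probeset rule left it unchanged. All passed background on both arrays, so raising values to the 95th percentile changed nothing either. Centring on the median moved each by 0.0016 only. At the 99th percentile as background, 3 of the 8 genes (P2ry1, P2ry14 and Entpd1) dropped out, and these were the 3 with lower stimulated values. P2ry6 and P2ry2 passed on the stimulated array only, where they are high. The median of the remaining 5 was 0.17, also with values raised to that level, but this choice of genes itself favours a higher median. With values raised to that level, an alternative chosen after seeing the data, P2ry6 differed by 0.40 and P2ry2 by 0.49, so that 0 genes were 1.5-fold apart. With values taken as measured 2 were, which was fixed once both passed that level on the stimulated array. In the other alternatives P2ry6 stayed within 0.1 of 0.92 and P2ry2 within 0.1 of 0.64. No gene was past 2-fold under any of these settings, while 2 were past 1.5-fold and 3 past 0.32 on the log2 scale (P2ry6, P2ry2 and, lower, Entpd1). The list of other receptors had no gene left at the stricter background. The medians of the 7 pathway lists, or the means used in their place, lay between -0.06 and 0.11 over all alternatives that gave a value. Those of other receptors, of adenosine uptake and breakdown, and of G proteins and phospholipase C changed sign under some alternatives. Signal close to background limits what can be said of P2ry1, P2ry14 and Entpd1. The same holds for the non-stimulated value of P2ry6, which lay 0.70 above background.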

Other observations

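Gda and Xdh, which act late in purine breakdown, were higher on the stimulated array, while most other genes of purine handling differed little. The lists here were chosen after the data were seen, with Xdh and Gda already known to be high, and have no test. Of 14 purine breakdown and salvage genes above background, the median difference was 0.06, with 8 higher and 6 lower. Gda, which turns guanine into xanthine, read 7.74 on the stimulated array, against 6.75 on the non-stimulated array, 1.98-fold higher, and Xdh, which oxidises xanthine, was 2.17-fold higher. The others lay between -0.17 (Ampd2) and 0.30 (Ampd3, an AMP deaminase gene), and Uox, the urate oxidase gene, was under background on both arrays. All 11 purine synthesis genes were above background, with a median of 0.04 and a highest difference of 0.25 (Prps1).

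Genes that handle pyrimidine nucleosides and UDP-sugars, which are related to the ligands of P2ry6 and P2ry14, differed little. Of 8 pyrimidine breakdown and salvage genes above background, the median difference was 0.05 (5 higher, 3 lower), between -0.22 (Tk1) and 0.19 (Dpyd). The 7 genes of UDP-sugar supply had a median of 0.01, with Ugp2, which makes UDP-glucose, at 9.37 on the stimulated array and 9.36 on the non-stimulated array.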
